A study of Mus musculus with 4 samples.

Results

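Carboxylesterases are serine hydrolases that cleave ester, amide and thioester bonds, and the mouse liver makes many of them from a family of duplicated genes. Most hepatic members are held in the lumen of the endoplasmic reticulum, where they meet drugs, retinyl esters and the triglyceride that is stored in the hepatocyte or packed into very-low-density lipoprotein (VLDL). The Ces1 enzymes include the triglyceride hydrolases, the Ces2 enzymes act on acylglycerols and many drug esters, and the Ces3 enzymes are abundant liver esterases. The genes described here are the 10 members Ces1b, Ces1d, Ces1e, Ces1f, Ces1g, Ces2a, Ces2c, Ces2e, Ces3a and Ces3b, taken by name from a table of 23920 genes. The table holds 19 carboxylesterase genes in all, and the transcript rows of each gene were summed.

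Levels were compared between 2 wild-type (WT) and 2 SREBP1c knockout (KO) liver libraries. SREBP1c is the transcription factor that drives hepatic fatty acid synthesis after feeding and is encoded by Srebf1. All 4 libraries came from male C57BL/6 mice aged 12 weeks that were refed for 12 h after a 24 h fast. The labels do not describe the knockout allele or the tissues that lack the protein, and they do not say whether each library is a separate animal, so the tests below speak only of the spread among these libraries. Values are FPKM, fragments scaled to transcript length and sequencing depth, a scale per length on which genes can be compared. As the check of the genotype, Srebf1 had 63.7 and 58.2 FPKM in WT against 8.63 and 6.97 FPKM in KO (limma adjusted p = 0.00172), in a single row that does not separate SREBP1c from SREBP1a.

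The 10 genes lie on chromosome 8 in the mm10 build, in 2 clusters with opposite orientation. The Ces1 genes lie on the minus strand, from Ces1b (93056725 to 93080017) through Ces1d (93166072 to 93197804), Ces1e (93201218 to 93229631) and Ces1f (93256236 to 93279766) to Ces1g (93302369 to 93337209). The Ces2 and Ces3 genes lie on the plus strand, from Ces2a (104734003 to 104741634) through Ces2c (104847068 to 104854483), Ces2e (104926260 to 104934672) and Ces3a (105048576 to 105061928) to Ces3b (105083733 to 105093929). Close copies share reads, which limits how well their values can be kept apart. Of all 50-base windows of the Ces3b transcript 26.1% also occur in Ces3a, and the longest identical run of this pair is 194 bases. Ces2c shares 38.2% of its windows with the pseudogene Ces2d-ps, and Ces1b shares 9.92% with Ces1c, the gene of the plasma carboxylesterase. In Ces1d, Ces1e, Ces1f, Ces1g, Ces2a and Ces2e between 0.533% and 4.56% of windows occur in any other carboxylesterase gene. The values of Ces3a, Ces3b and Ces2c are therefore the least certain, since how the authors' program placed shared fragments is not given in the sources used here.

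Promoter sequences (RefSeq, GRCm38.p6) were at hand for 7 of the 10 genes and are shown for those the comparison turns on. Each window is the 250 bases before a listed transcript start, which lies 77 bases inside the outer end of Ces1b and 22 bases inside that of Ces3b. Of the 15 carboxylesterase genes with a sequence, Ces1b and Ces1c have the most alike windows, with 211 identical bases in an alignment of 277 columns (76.2%) against a median of 46.2% over 105 pairs. Ces1b has 2 listed starts, of which the one closer to Ces1c is shown, and the window before its outer start, 93080017, is 43.1% identical to that of Ces1c. The shown windows are the minus-strand regions chr8:93079941-93080190 and chr8:93131284-93131533, and capitals mark bases that differ from the aligned partner or have none in it.
Ces1b: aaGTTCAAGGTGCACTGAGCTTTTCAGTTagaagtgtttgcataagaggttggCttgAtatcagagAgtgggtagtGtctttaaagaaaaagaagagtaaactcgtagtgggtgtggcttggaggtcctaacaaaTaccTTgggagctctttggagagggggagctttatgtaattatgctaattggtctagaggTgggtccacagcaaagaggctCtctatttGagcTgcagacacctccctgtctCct
Ces1c: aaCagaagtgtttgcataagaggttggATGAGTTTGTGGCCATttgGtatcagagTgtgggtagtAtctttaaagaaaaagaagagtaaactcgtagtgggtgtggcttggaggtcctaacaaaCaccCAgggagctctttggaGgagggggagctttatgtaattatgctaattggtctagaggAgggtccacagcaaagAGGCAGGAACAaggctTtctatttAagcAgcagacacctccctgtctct
Besides Ces1b, 4 genes with a sequence had each KO library below each WT library. Of these Ces3b and Ces2a are shown because they hold matches to the motifs searched, while Ces1e and Ces2e hold none. They are the plus-strand regions chr8:105083505-105083754 and chr8:104733753-104734002, and capitals mark matches on either strand to 5 searched motifs.
Ces3b: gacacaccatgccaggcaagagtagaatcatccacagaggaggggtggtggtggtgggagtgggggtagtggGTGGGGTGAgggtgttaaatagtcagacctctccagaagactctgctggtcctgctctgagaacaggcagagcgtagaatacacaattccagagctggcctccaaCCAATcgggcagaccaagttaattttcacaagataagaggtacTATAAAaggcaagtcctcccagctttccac
Ces2a: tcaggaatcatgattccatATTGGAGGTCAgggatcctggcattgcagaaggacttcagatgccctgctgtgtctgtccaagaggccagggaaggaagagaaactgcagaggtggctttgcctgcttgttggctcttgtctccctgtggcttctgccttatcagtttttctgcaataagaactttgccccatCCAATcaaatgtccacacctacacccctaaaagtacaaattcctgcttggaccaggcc
The motifs were TCACNCCAC, a sterol regulatory element bound by SREBP proteins, the E-box CACGTG, the TATA box TATAAA, the NF-Y box CCAAT and the nuclear receptor half-site AGGTCA, and no 2 of them overlap in these windows. The sterol element occurs in Ces3b, on the opposite strand and 178 bases before the listed transcript start at 105083755, and in none of the other 6 genes with a sequence. It occurs in 1.05% of all 32851 promoter windows of the same length. The NF-Y box occurs in 5 of the 7 genes (33.8% of all windows), the TATA box in Ces1g and Ces3b (12.4%), the nuclear receptor half-site in Ces2a (14.0%) and CACGTG in none (6.02%). A match of letters is not a measured binding site.

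Ces3a was by far the most abundant member and differed little between the genotypes, while Ces3b and Ces1b had the largest differences, with means 35.7% and 36.5% lower in KO. Of the 10 genes 9 had a lower mean log2 value in KO, against 45.4% of all 9820 genes tested. Within WT, replicate 2 likewise lay below replicate 1 for 9 of the 10, so most members also shifted together between libraries of 1 genotype. For 6 of the 10 genes each KO library lay below each WT library, which held for 16.4% of all genes tested. The median log2 difference (KO minus WT of log2(FPKM + 1)) was −0.29 for the members and 0.017 for all genes. None of the 10 passed the threshold of 0.05 for limma's adjusted p, which 0.0713% of all genes passed, and 4 had an unadjusted p below 0.05, each lower in KO, against 3.25% of all genes in that direction. The counts describe genes that were chosen with earlier results of these data known.

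By level, Ces3a stood first with 1028 and 894 FPKM in WT against 987 and 916 FPKM in KO, ranking between 60 and 70 among all genes in every library. Next came Ces1f, Ces1d and Ces3b, then Ces2a, Ces1g, Ces2e, Ces1e, Ces1b and Ces2c. The 4-library ranges of neighbours in this order overlapped for Ces1f and Ces1d, for Ces3b and Ces2a, for Ces2a and Ces1g, for Ces1g and Ces2e, for Ces1e and Ces1b and for Ces1b and Ces2c. Only Ces3a and Ces1f, Ces1d and Ces3b, and Ces2e and Ces1e had ranges apart. The last 2 gaps were narrow: the lowest Ces1d value was 176.3 FPKM against at most 173.1 for Ces3b, and the lowest Ces2e value 66.4 against at most 65.0 for Ces1e. Despite overlapping ranges, Ces1f stood above Ces1d, Ces3b above Ces2a and Ces1e above Ces1b within each of the 4 libraries. The 10 genes together had 2176 and 1952 FPKM in WT against 1963 and 1692 FPKM in KO, between 0.314% and 0.405% of the summed FPKM of the table.

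**Figure D1:**
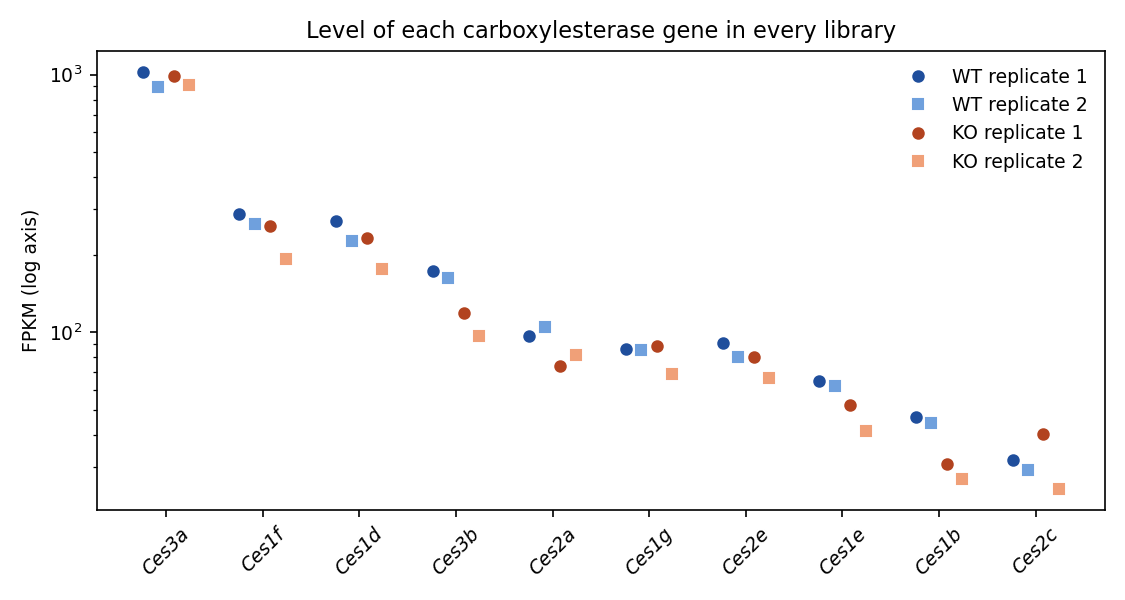
FPKM (vertical log axis) of the 10 carboxylesterase genes, ordered by mean level; each point is 1 library, WT in blue and KO in red. Ces3a lies between 894 and 1028 FPKM in all libraries, and the KO points of Ces3b and Ces1b lie below both WT points.

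Among the Ces1 genes, Ces1d encodes the hydrolase that mobilizes stored triglyceride for VLDL (triacylglycerol hydrolase). It had 271 and 226 FPKM in WT against 233 and 176 FPKM in KO. The groups overlapped, because KO replicate 1 lay between the WT libraries, and the log2 difference of −0.29 had a 95% interval from −0.72 to 0.15 (limma adjusted p = 0.746). Ces1f, a close relative with triglyceride hydrolase activity, had 287 and 264 FPKM in WT against 258 and 193 FPKM in KO. Both KO libraries lay below WT, KO replicate 1 by little, and the difference of −0.30 (SE 0.17, limma adjusted p = 0.723) was within the error. The ratio of Ces1d to Ces1f was 94.4% and 85.6% in WT against 90.3% and 91.5% in KO, with the KO values inside the range of WT (exact two-sided permutation p = 1.0).

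Ces1g encodes an esterase known to restrain hepatic lipogenesis and VLDL secretion. It had 86.0 and 85.7 FPKM in WT against 88.8 and 69.1 FPKM in KO, with KO replicate 1 the highest library and KO replicate 2 the lowest. Its log2 difference was −0.13 (SE 0.15, limma adjusted p = 0.866), and it was 0.048 without KO replicate 2.

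Ces1e, which encodes egasyn, the protein that anchors beta-glucuronidase in the endoplasmic reticulum, had 65.0 and 62.0 FPKM in WT against 52.2 and 41.3 FPKM in KO. Both KO libraries lay below WT, a mean of 46.8 ± 7.70 against 63.5 ± 2.14 FPKM (SD, n = 2 each). The log2 difference of −0.44 (SE 0.14) had a limma unadjusted p of 0.0196 and an adjusted p of 0.540. Leaving out KO replicate 2 gave −0.28, and leaving out KO replicate 1 gave −0.61 with an adjusted p of 0.0334.

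Ces1b, a liver esterase gene beside Ces1c, had 46.8 and 44.4 FPKM in WT against 30.9 and 27.0 FPKM in KO. The groups did not overlap, at 45.6 ± 1.69 against 29.0 ± 2.75 FPKM (SD, n = 2 each), so WT exceeded KO 1.57-fold. Its log2 difference came to −0.64 (SE 0.11, 95% interval −0.92 to −0.36), with the smallest p of the family (limma unadjusted p = 0.00141, adjusted p = 0.239). Ces1c, which is not among the 10, had 972 and 913 FPKM in WT against 849 and 942 FPKM in KO (log2 difference −0.074, limma adjusted p = 0.926). Within each library Ces1b stood at 4.81% and 4.86% of Ces1c in WT and at 3.64% and 2.87% in KO, so both KO libraries lay below both WT libraries in this proportion. An exact two-sided permutation test of this ratio gave p = 0.333, the smallest that 2 libraries against 2 can give.

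The log2 differences of the Ces2 members ran from −0.37 for Ces2a to 0.051 for Ces2c, with overlapping limma intervals. Ces2a relative to Ces2c was 304% and 359% in WT against 183% and 333% in KO, with overlap (exact two-sided permutation p = 0.667). Ces2c relative to Ces2e was 35.0% and 36.2% in WT against 50.4% and 37.1% in KO (exact two-sided permutation p = 0.333, the smallest possible). Ces2a, an enzyme with diacylglycerol and triglyceride hydrolase activity, had 96.8 and 105 FPKM in WT against 74.1 and 81.9 FPKM in KO. Both KO libraries lay below WT, and here KO replicate 1 was the lower one. The log2 difference was −0.37 (SE 0.12, limma unadjusted p = 0.0197, adjusted p = 0.540).

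Ces2e, another esterase of the endoplasmic reticulum, had 91.0 and 80.43 FPKM in WT against 80.40 and 66.4 FPKM in KO. WT replicate 2 and KO replicate 1 were thus almost equal, so the absence of overlap rests on a difference far smaller than the spread within a group (log2 difference −0.23, limma adjusted p = 0.744). Ces2c, whose product hydrolyses acylglycerols and acylcarnitines, had 31.9 and 29.1 FPKM in WT against 40.5 and 24.6 FPKM in KO. Its KO libraries were the highest and the lowest of the 4, and it alone had a positive log2 difference, 0.051 with a 95% interval from −0.50 to 0.61 (limma adjusted p = 0.974). The pseudogene Ces2d-ps, with which it shares so many windows, had the same order of libraries, 10.2 and 9.51 FPKM in WT against 12.8 and 8.32 FPKM in KO. Read sharing and separate expression cannot be told apart for this pair.

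Of the Ces3 genes, Ces3a had nearly equal means, with a log2 difference of −0.012 and a 95% interval from −0.38 to 0.36 (limma adjusted p = 0.992). A change of up to about that size in either direction is therefore not excluded. Its neighbour Ces3b had 173 and 162 FPKM in WT against 119 and 97.0 FPKM in KO. Both KO libraries lay below WT, at 108 ± 15.2 against 168 ± 7.78 FPKM (SD, n = 2 each), so WT exceeded KO 1.55-fold. The log2 difference of −0.64 (SE 0.14, 95% interval −0.98 to −0.30) had a limma unadjusted p of 0.00364 and an adjusted p of 0.326. Ces3b stood at 16.8% and 18.1% of Ces3a in WT and at 12.0% and 10.6% in KO (exact two-sided permutation p = 0.333, the smallest possible).

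**Figure D2:**
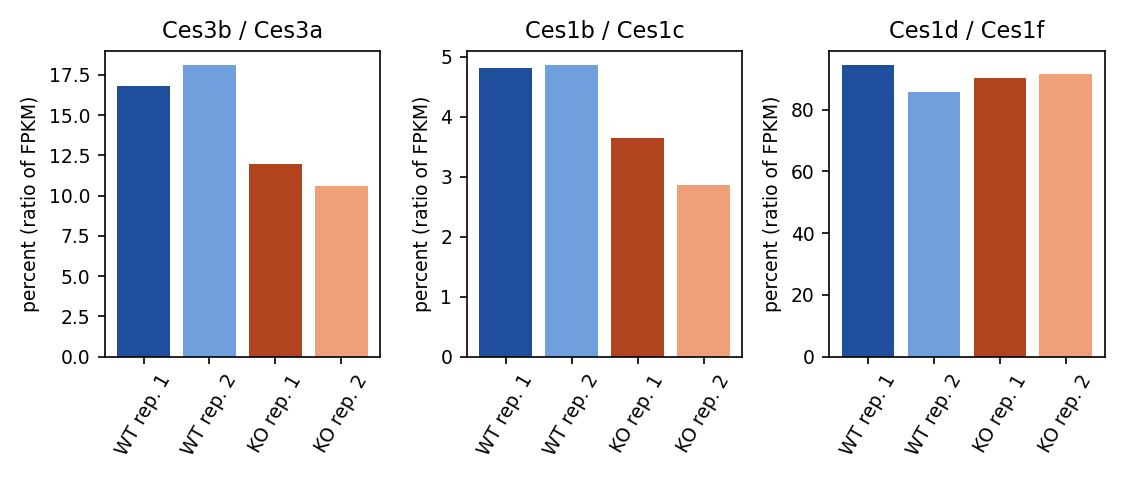
Ratio of FPKM between 2 carboxylesterase genes within each library, in percent on axes from 0; bars are single libraries, WT in blue and KO in red. Ces3b relative to Ces3a (16.8% and 18.1% against 12.0% and 10.6%) and Ces1b relative to Ces1c are lower in both KO libraries, while Ces1d relative to Ces1f runs from 85.6% to 94.4% with overlap.

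The pairs in the ratios were chosen after their values were seen. Ratios within a library do not depend on how libraries are scaled, and they say nothing of which gene of a pair moved. The 2 rows of Ces3b gave like values: the main transcript NM_144511 had 163 and 152 FPKM in WT against 112 and 91.3 FPKM in KO, and the minor NM_001159415 had 9.81 and 10.1 FPKM in WT against 6.25 and 5.72 FPKM in KO. The minor row made up between 5.28% and 6.22% of Ces3b in every library. For Ces3a the second transcript NM_001164681 made up 27.0% and 25.3% in WT and 24.9% in both KO libraries. The second row of Ces2e (NM_172759) gave between 3.24% and 6.35% of its gene, and that of Ces2a (NM_001190330) between 0.156% and 1.14%. The other 6 genes have 1 row.

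**Figure D3:**
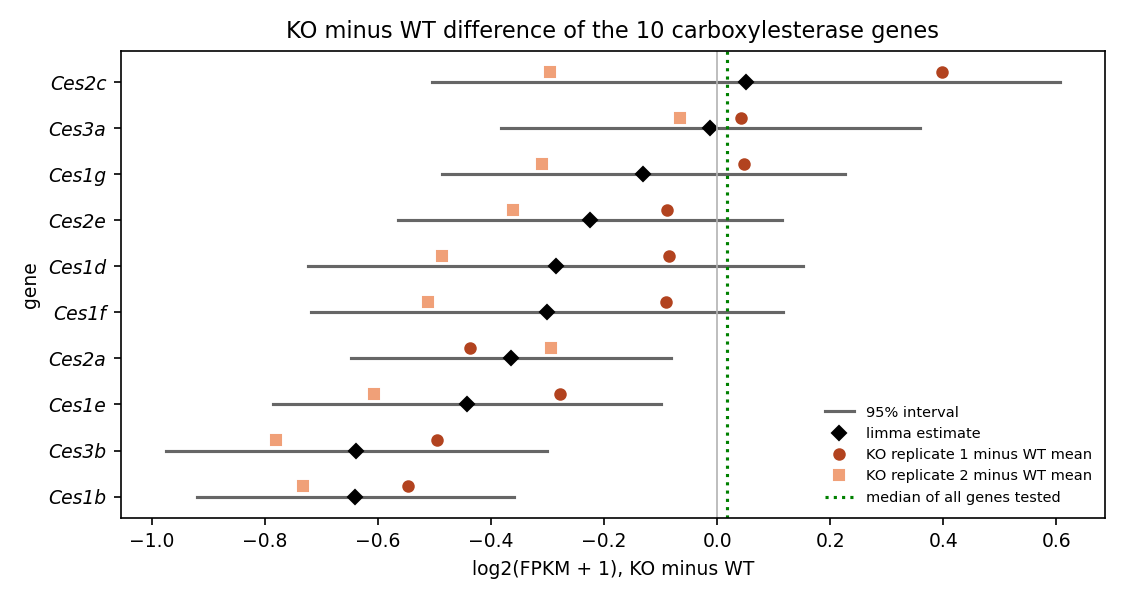
Difference in log2(FPKM + 1) of each gene between KO and WT: diamonds are limma estimates with 95% intervals, circles and squares the single KO libraries relative to the WT mean, and the dotted line the median of all genes tested (0.017). For Ces1b and Ces3b both KO libraries and the whole interval lie below 0, while for Ces2c the KO libraries lie on opposite sides.

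The KO libraries did not contribute alike. KO replicate 2 was the lowest of the 4 libraries for 8 of the 10 genes, against 26.8% of all genes tested, the exceptions being Ces2a and Ces3a. It lay below KO replicate 1 for 9 of the 10 genes. The same order held in WT, where replicate 2 lay below replicate 1 for 9, with Ces2a the exception in both groups. Relative to the WT mean, the members had a median log2 value of −0.090 for KO replicate 1 and −0.42 for KO replicate 2, against 0.014 and 0.020 for all genes. Ces1d, Ces1f, Ces1g and Ces2e lay between −0.091 and 0.048 in KO replicate 1 and between −0.51 and −0.31 in KO replicate 2. Ces1b and Ces3b lay at −0.55 and −0.50 in KO replicate 1 and at −0.73 and −0.78 in KO replicate 2. Genes with each KO library below each WT library stay so when a library is left out, so their count of 6 could not fall. Without KO replicate 2, 6 genes lay below both WT libraries, against 32.8% of all genes. Without KO replicate 1, 9 did, against 33.9% of all genes, and Ces1b (adjusted p = 0.0172), Ces1e (0.0334) and Ces3b (0.0112) passed limma's threshold, in a fit in which 306 genes passed in all and the single KO library was assumed to vary like the WT group.

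KO replicate 2 also stood apart in acute phase genes, whose summed level was 15610 and 19300 FPKM in WT, 13130 in KO replicate 1 and 33870 in KO replicate 2. All 25 of them were measured, 24 with a positive log2 difference (median 0.28) and 1 with a negative one (45.4% of all genes tested). Only 5 had each KO library above each WT library (22.4% of all genes tested), and none passed limma's adjusted threshold. Their part in the lower carboxylesterase values of that library was not tested. Other cell types were measured through fixed marker lists. The 7 Kupffer cell markers in the table summed to between 88.1 and 105 FPKM in WT and KO replicate 1 and to 148 FPKM in KO replicate 2, the 6 lymphocyte markers to at most 1.56 FPKM, and 6 cholangiocyte markers to 25.4 and 23.5 FPKM in WT against 50.2 and 41.7 FPKM in KO. Most of the cholangiocyte sum was Spp1, with 21.3 and 20.2 FPKM in WT against 45.5 and 37.0 FPKM in KO (limma adjusted p = 0.136). Only 3 of the 6 reached the filter. Of the other tested ones, Krt19 had 0.89 and 0.86 FPKM in WT against 2.23 and 1.28 FPKM in KO (log2 difference 0.53), while Sox9 had a log2 difference of −0.11. Monocyte and neutrophil markers (6 in the table) summed to 9.97 and 12.5 FPKM in WT, 7.71 in KO replicate 1 and 25.4 in KO replicate 2, sinusoidal endothelial markers to between 50.2 and 66.8 FPKM and stellate cell markers to between 47.7 and 53.0 FPKM. Intestinal and adipose markers summed to 159 and 153 FPKM in WT against 276 and 213 FPKM in KO, with Lct listed at 0. Of these the intestinal Fabp2 had 135.6 and 138.5 FPKM in WT against 250.1 and 159.1 FPKM in KO. The adipose Cfd had 0.44 and 0.12 FPKM in WT against 3.83 and 32.1 FPKM in KO (limma adjusted p = 0.406). Fabp4 of the same list had 22.85 and 14.33 FPKM in WT against 22.45 and 21.75 FPKM in KO, within the range of WT. The part of these cells in the carboxylesterase values was not tested. The 8 hepatocyte markers summed to between 17940 and 20290 FPKM, although Alb was listed at 0 in all libraries, so a listed 0 is not read as absence. Of the 7 that were tested 3 were lower in both KO libraries (16.4% of all genes tested) and 2 higher (22.4%). The higher ones were Hnf4a and Cyp2e1, with log2 differences of 0.21 and 0.23. The urea cycle gene Cps1 stood at 619.5 and 621.3 FPKM in WT against 361.8 and 399.6 FPKM in KO, a log2 difference of −0.70 (limma unadjusted p = 0.00167, adjusted p = 0.246) about as large as those of Ces1b and Ces3b. In bulk tissue, fewer cells of a type and less RNA per cell cannot be told apart.

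Summed by family, the Ces1 members had 756 and 681 FPKM in WT against 663 and 506 FPKM in KO. The Ces2 members had 220 and 214 FPKM in WT against 195 and 173 FPKM in KO. In both sums the KO libraries lay below WT (means 18.6% and 15.2% lower), with an exact two-sided permutation p of 0.333, the smallest this design allows. The size depended on the KO library: the log2 fold of the Ces1 sum, −0.30, was −0.12 on leaving out KO replicate 2 and −0.505 on leaving out KO replicate 1, and that of the Ces2 sum, −0.24, was −0.15 and −0.33. The Ces3 members had 1201 and 1056 FPKM in WT against 1105 and 1013 FPKM in KO and overlapped. The sum of all 10 overlapped as well (11.4% lower mean, exact permutation p = 0.667), and its log2 fold of −0.18 was −0.072 without KO replicate 2, −0.29 without the other KO library and −0.094 without WT replicate 1. Ces3a alone supplied 47.2% and 45.8% of the members' FPKM in WT and 50.3% and 54.1% in KO, the largest share of any member. Without Ces3a the other 9 had 1149 and 1058 FPKM in WT against 977 and 776 FPKM in KO. Over all 19 carboxylesterase genes the sum did not overlap, with 3191 and 2899 FPKM in WT against 2849 and 2663 FPKM in KO. Its mean was 9.5% lower in KO (exact two-sided permutation p = 0.333).

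The remaining 9 carboxylesterase genes of the table were Ces1c and Ces2d-ps, given above, Ces2g, Ces4a and 5 genes at or near 0. Ces2g had 28.8 and 21.8 FPKM in WT against 19.7 and 16.9 FPKM in KO (log2 difference −0.43, limma unadjusted p = 0.0355, adjusted p = 0.607). Ces4a had 3.34 and 2.49 FPKM in WT against 2.26 and 2.60 FPKM in KO. Ces2b had between 0.131 and 0.741 FPKM, Ces2h between 0.130 and 0.246 FPKM and Ces1a between 0.0250 and 0.125 FPKM, while Ces2f was above 0 in 1 library only and Ces5a was listed at 0 in all 4. Differences did not follow the position in the clusters: Ces1b and Ces3b, at −0.64 each, stand directly beside Ces1c at −0.074 and Ces3a at −0.012. Of the 17 other genes tested that start within 500 kb of a member, 12 had a positive difference and 5 a negative one (median 0.14), 9 had each KO library above each WT library (22.4% of all genes tested) and none passed limma's adjusted threshold. Cbfb, a core-binding factor subunit, had the smallest p of these, with 3.04 and 3.34 FPKM in WT against 4.66 and 4.79 FPKM in KO (limma adjusted p = 0.402).

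**Figure D4:**
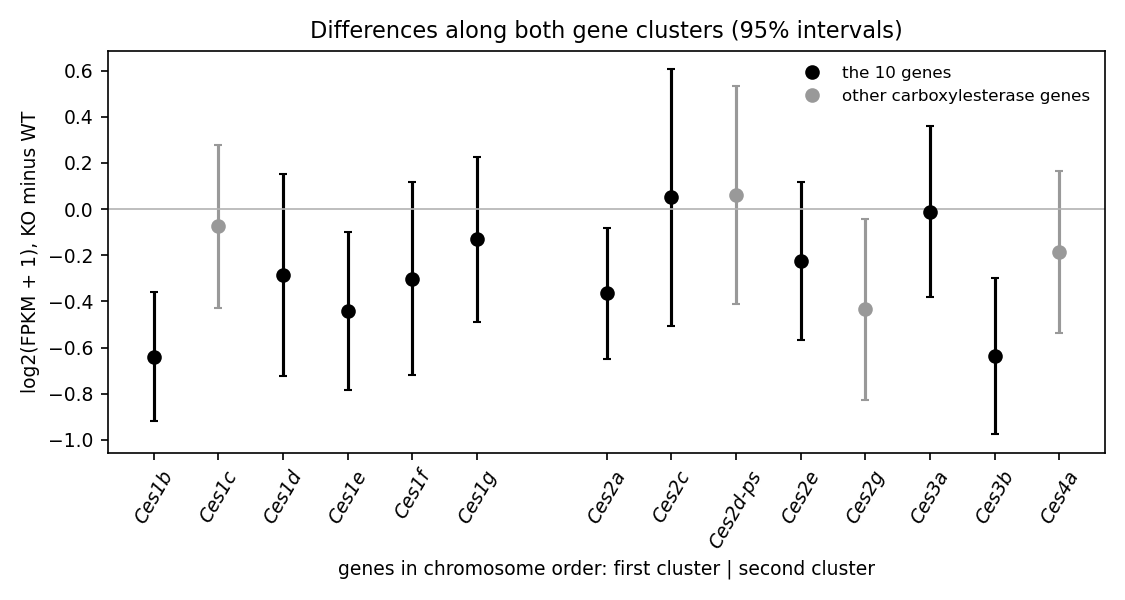
Log2 difference, KO minus WT, of the 14 carboxylesterase genes tested, in chromosome order with the 95% interval of limma; black points are the 10 members and grey points the other genes of the family, with a gap between the clusters. Ces1b and Ces3b, at −0.64, lie next to genes near 0.

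Related functions were compared through fixed gene lists, and no gene of any list passed limma's adjusted threshold. Of 18 measured neutral lipid and retinyl ester hydrolases and cofactors, 14 had a negative difference and 4 a positive one (median −0.054), while 4 were lower in both KO libraries (16.4% of all genes tested) and 1 was higher (22.4%). Abhd5, the coactivator of adipose triglyceride lipase, had 19.5 and 12.3 FPKM in WT against 15.6 and 7.99 FPKM in KO. Ddhd2, a phospholipase with triglyceride hydrolase activity, had 5.93 and 3.78 FPKM in WT against 3.74 and 2.83 FPKM in KO. Ddhd1 went the other way, with 4.675 and 3.49 FPKM in WT against 4.52 and 5.15 FPKM in KO (log2 difference 0.21). The 16 genes of VLDL assembly were evenly split (8 and 8, median −0.0010). Among them Mttp, which loads lipid onto apolipoprotein B, had 113 and 97.9 FPKM in WT against 84.2 and 71.5 FPKM in KO (log2 difference −0.43, limma unadjusted p = 0.0196, adjusted p = 0.540). Pla2g12b was higher in both KO libraries, with 52.25 and 51.7 FPKM in WT against 62.1 and 58.75 FPKM in KO (log2 difference 0.21).

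Of 18 other hydrolases of foreign compounds, 8 had a positive difference and 10 a negative one (median −0.022). Pon1, the serum paraoxonase, had 408 and 419 FPKM in WT against 485 and 479 FPKM in KO. Aadac, an arylacetamide deacetylase of the same cell compartment, had 374 and 347 FPKM in WT against 342 and 299 FPKM in KO. Of 17 measured drug metabolism genes of the xenobiotic receptors PXR and CAR, 6 were higher in both KO libraries (22.4% of all genes tested) and 3 lower (16.4%), with a median log2 difference of 0.13. Cyp3a11, the main hepatic drug-oxidizing P450 of this list, had 973 and 1210 FPKM in WT against 487 and 694 FPKM in KO (limma adjusted p = 0.405), and Alas1, which starts heme synthesis, had 50.6 and 41.0 FPKM in WT against 124 and 77.2 FPKM in KO (limma adjusted p = 0.326).

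Of 13 measured transcription factors known to act on such genes, 7 had a negative difference and 6 a positive one (median −0.0093). Nr1h4, which encodes the bile acid receptor FXR, had 67.4 and 48.1 FPKM in WT against 44.8 and 34.5 FPKM in KO (limma unadjusted p = 0.0404, adjusted p = 0.625). Hnf4a had 120 and 106 FPKM in WT against 121 and 142 FPKM in KO, and Nr1i3, which encodes CAR, 35.7 and 40.6 FPKM in WT against 48.3 and 40.8 FPKM in KO. Of 18 measured genes of retention and folding in the endoplasmic reticulum, where most of these esterases reside, 14 had a positive difference and 4 a negative one (median 0.059). Hspa5, the lumenal chaperone BiP, had 606 and 504 FPKM in WT against 519 and 821 FPKM in KO, with KO replicate 2 the highest library.

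The steps between low FPKM values implied about 23.1 and 20.8 M fragments in WT against 22.9 and 20.7 M in KO. The least covered member value, Ces2c in KO replicate 2, then rests on about 1007 fragments, a counting error of 3.15%, while its KO libraries differed by far more (32.6 ± 11.2 FPKM, SD, n = 2). For Ces3a the counting error was at most 0.513%. Both errors take every fragment as the gene's own and leave out read sharing. Of the 50-base windows, 40.2% in Ces2c and 30.9% in Ces3a also occur in another carboxylesterase gene.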

How the data were processed

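Liver RNA of 2 WT and 2 KO libraries was analysed from 1 deposited table. Groups and replicate numbers come from the sample titles. Per the file headers, the authors deposited FPKM values, 1 for each RefSeq transcript in each library (33170 rows, 23920 genes). The submitters' processing notes list TopHat, Bowtie and mm10. How FPKM was computed, with which annotation and with or without strand, is not given in the sources used here. Rows were summed per gene. Symbols of 56 rows that read as dates were restored through the gene number.

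Genes with a mean of at least 1 FPKM (9820) entered a limma fit (version 3.58.1, R 4.3.3, intensity trend) on log2(FPKM + 1), with p-values adjusted by the Benjamini-Hochberg method over all of them at a threshold of 0.05. The pseudocount of 1 understates changes of low genes. Single values per library were compared by an exact two-sided permutation test, which cannot go below 0.333 with 2 against 2. Only the limma fit was checked on simulated data, not the permutation test. The simulated noise came from the fit's own variances, and the added differences were larger than those of the members. The check therefore does not show how the fit treats differences as small as theirs. Low values implied the depth: between 59.0% and 61.9% lay within 0.1 of a whole fragment, too few for a count test.

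Coordinates come from RefSeq (GRCm38.p6, the assembly of mm10), which matched 23847 genes by number, and promoters are 250 bases before a transcript start of its table, which can lie inside the outer bounds of the gene. Transcript sequences for shared windows come from GENCODE M21 on the same assembly and were aligned with biopython 1.88. The text names all members, the other carboxylesterase genes, and from each list those past the threshold or else among the 4 with the smallest p. The members and lists were chosen with earlier results of these data known. Alternatives were other pseudocounts, filters, scalings and variance priors, a block for the replicate number, leaving out each library, rows as deposited and a threshold of 0.1.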

Additional observations from a re-analysis of the deposited data

How the results depend on the processing

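Over 15 alternatives for each of the 10 genes, 141 of 150 results kept their direction and their side of the threshold. Filters, variance priors, the replicate block and the threshold leave a member's log2 difference unchanged, so its direction could not turn under these. Ces1b, Ces1e and Ces3b passed without KO replicate 1, as given above. The log2 difference turned in 6 cases, all of genes near 0. Ces1g reached 0.048 on leaving out KO replicate 2 and ran from −0.31 to that value over the libraries left out. Ces2c was −0.011 without WT replicate 2 and ran from −0.30 (without KO replicate 1) to 0.40. Ces3a was 0.042 on leaving out KO replicate 2 and 0.012 with rows as deposited, and ran from −0.11 to 0.089 (without WT replicate 1). The log2 difference of Ces1b ran from −0.73 to −0.55 and that of Ces3b from −0.78 to −0.50.

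The count of members past the threshold was 0 under every other alternative and 3 without KO replicate 1, so with 1 library left out it ran from 0 to 3. The count of all genes past the threshold, 7, was 11 with a pseudocount of 0.1, 0 without a filter, 3 with a minimum mean of 5 FPKM, 4 with quantile scaling and 15 with a robust variance prior, and ran from 1 to 306 with 1 library left out. With the replicate number as a block it was 19, and no member passed. Same-numbered libraries deviated together with a correlation of 0.167 over all genes tested, and nothing in the labels pairs them. Among the 10 members, replicate 2 lay below replicate 1 for 9 in WT and for 9 in KO. With 1 library left out, the log2 fold ran from −0.505 to −0.12 for the Ces1 sum, from −0.33 to −0.15 for the Ces2 sum, from −0.18 to 0.0043 (without WT replicate 1) for the Ces3 sum and from −0.29 to −0.072 for all members. The number of members below both WT libraries, 6, was 7 with upper-quartile scaling (20.4% of all genes) and 8 without WT replicate 2 (34.4%), alternatives added after the data were seen. Leaving out a library could not lower this number. The share of Ces3a in the members' FPKM was 42.4% with only the highest row of each member counted, against 49.4% with rows summed. The causes of these shifts were not tested.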
